A study of Caenorhabditis elegans with 2 samples.

Results

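The genes described here are 47 maternal RNA regulators and polarity genes of Caenorhabditis elegans, of 19973 protein-coding genes on the nuclear chromosomes. They were listed by symbol and all 47 matched the WBcel235 annotation. They fall into 4 subgroups by role, with 8 germ granule genes, 24 genes for maternal RNA-binding proteins and their partners, 5 MES chromatin genes (xnd-1 included) and 10 PAR polarity genes. Binding of SCRT-1, a zinc finger protein of the Scratch branch of the Snail family, was measured by chromatin immunoprecipitation and sequencing (ChIP-seq) with an antibody to GFP. All data come from 1 group with 2 biological replicates. There is no second condition, and no test between groups can be made. Both replicates were whole early embryos, 2 h old, obtained by egg bleaching. The strain, OP802, carries the transgene wgIs802, in which scrt-1 is fused to TY1, EGFP and 3xFLAG, together with unc-119(+) in the unc-119 (tm4063) background. The labels name no change at the endogenous scrt-1 gene, and peak lists give no expression level by which the tissue could be checked.

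In the C. elegans germ line and early embryo, many of these genes act through RNA and protein that the mother loads into the egg. Germ granules (P granules) are condensates of RNA and protein inherited by the germ lineage. CCCH finger, KH, PUF and Nanos proteins bind maternal messenger RNAs and set where and when they are translated. MES proteins pass on histone methylation states from the parental germ line, and the PAR network divides the zygote into an anterior and a posterior domain.

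A site is a peak of the deposited conservative list, which holds 1211 peaks that recurred between the replicates. A candidate is any of the 101059 ranked peaks from which they came. A gene was counted as having a site or a candidate when the peak's summit lay from 1000 bp upstream to 200 bp downstream of any of its annotated starts, here called its promoter window. Peak signal is the authors' peak caller value, of unstated scale. The irreproducible discovery rate (IDR) estimates, for a peak and those ranked above it, how many would fail to recur; its largest value among the sites was 0.00999.

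Most of these genes had candidates but no site. Sites lay in the windows of 3 of the 47, which were the CCCH finger gene mex-1, the atypical protein kinase C gene pkc-3 and cgef-1, which encodes an exchange factor for the GTPase CDC-42. That is 6.38% (exact Clopper-Pearson 95% interval 1.34 to 17.5, counting error only), beside 2.99% of all protein-coding genes. The interval includes the share over all genes. It rests on 3 genes, counts the members as independent and was not used as a test. No difference from all genes is claimed. Just outside was lgl-1, which encodes the Lethal giant larvae protein of the posterior domain and had the next lowest IDR, 0.0179.

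The sequences below are 101 bp centred on the summits of these 4 peaks and of the candidate at the Polycomb gene mes-2, which was not a site. The first 4 are shown because they are the peaks on the conservative or optimal list, and mes-2 as an example of a promoter-proximal candidate on neither. All are from the RefSeq assembly WBcel235, read 5′ to 3′ on the strand of the named gene, and none overlaps an annotated UTR. Capitals mark any of 5 words searched on both strands, with no overlap among them in these windows: the Snail and Scratch E-box CAGGTG, its variant CAAGTG, the repeat GAGAGA, the GC box GGGCGG and the tRNA B box word GTTCGA.

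mex-1 (chrII:11967648-11967748, plus strand): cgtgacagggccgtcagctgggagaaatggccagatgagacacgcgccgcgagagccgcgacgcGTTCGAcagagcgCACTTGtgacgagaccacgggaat
pkc-3 (chrII:5379777-5379877, plus strand): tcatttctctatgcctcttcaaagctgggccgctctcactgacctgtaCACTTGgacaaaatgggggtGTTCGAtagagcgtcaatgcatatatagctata
cgef-1 (chrX:2793610-2793710, plus strand): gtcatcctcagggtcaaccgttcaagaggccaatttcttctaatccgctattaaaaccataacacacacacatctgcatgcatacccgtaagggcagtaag
lgl-1 (chrX:871248-871348, minus strand): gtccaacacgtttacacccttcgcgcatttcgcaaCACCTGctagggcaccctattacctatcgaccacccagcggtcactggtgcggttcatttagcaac
mes-2 (chrII:14383825-14383925, plus strand): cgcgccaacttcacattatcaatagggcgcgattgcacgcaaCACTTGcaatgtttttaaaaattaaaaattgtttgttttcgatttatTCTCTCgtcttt

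The E-box CAGGTG was present in the lgl-1 window, read as CACCTG on the strand shown, and in none of the windows of the 3 sites. Over windows of the same length it occurred in 3.47% of all sites and 3.12% of all candidates. The variant CAAGTG, which occurred in 7.10% of sites and 4.63% of candidates, was present at mex-1, pkc-3 and mes-2. The word GTTCGA, in 15.3% of sites and 3.99% of candidates, was present at mex-1 and pkc-3. At cgef-1 none of the 5 words was found. GAGAGA was present at mes-2 (13.7% of sites and 6.32% of candidates), and GGGCGG in none of the 5 windows (9.91% and 2.93%). Other members also had a candidate on neither list at an IDR of at most 0.1. These were pie-1, mex-3, nos-3, cey-1 and par-1, and none of the 5 words was found around their summits. The words at mes-2 are therefore not typical of such candidates. All these matches describe the letters in the windows and were not tested. The GC content of the window was 64.4% at mex-1, 54.5% at lgl-1, 45.5% at both pkc-3 and cgef-1, and 35.6% at mes-2, where the sites as a whole had quartiles of 46.5% and 56.4%. Thus mex-1 lay above that range, and pkc-3 and cgef-1 just below it.

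The site at mex-1 was the strongest among these genes. MEX-1 is a maternal CCCH finger protein needed to partition germline factors in the early embryo. Peak signal at this site (chrII:11967540-11967855) was 71.2 in replicate 1, 31.3 in replicate 2 and 105 over both, at an IDR of 0.00384. It ranked 500th by signal among the 1211 sites, whose median was 94.6, and overlapped the list of replicate 1 alone but not that of replicate 2. The summit lay between protein-coding genes, 939 bp upstream of mex-1. It was nearer to 2 other genes, 154 bp upstream of W03C9.5 and 767 bp upstream of rab-7, which encodes a GTPase of late endosomes. The other candidates in the mex-1 windows, 75 bp and 143 bp downstream of a start, had signals of 31.8 and 49.2 at an IDR of 0.438 and 0.289. The peaks nearest to the mex-1 starts were therefore on neither list.

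At pkc-3 the window held 1 candidate and it was a site. PKC-3 is the kinase of the anterior PAR complex. Its peak (chrII:5379669-5379984) reached 40.5 in replicate 1, 32.4 in replicate 2 and 68.4 over both. Its summit lay 200 bp upstream of the single annotated start and in no other gene's window. With an IDR of 0.00975 it stood just inside the limit, ranked 1109th among the sites, and overlapped neither replicate's own thresholded list. In the second series-wide ranked list its IDR was 0.0103, and it is absent from the optimal list derived there.

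The cgef-1 site (chrX:2793502-2793817) lay inside the gene. Signal was 38.4 in replicate 1, 41.9 in replicate 2 and 78.8 over both, the smallest gap between replicates among the 3 sites. The summits of the paired replicate peaks were 4 bp apart there, against 29 bp at pkc-3 and 31 bp at mex-1. The site is intronic, 163 bp upstream of an internal start and 21618 bp downstream of the outermost of its 3 starts. It ranked 926th among the sites at an IDR of 0.00607, and overlapped neither replicate's own list. At the outermost start the candidates had signals of 21.9 and 11.1 and the highest IDR in the list, 0.763. No other protein-coding gene's window held this summit.

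At lgl-1 the values crossed the limit the other way. The peak (chrX:871140-871455), 209 bp upstream of the start, reached 86.9 over both replicates, above pkc-3 and cgef-1. Replicate 1 gave 62.7 and replicate 2 gave 24.8, a wider gap than at either. The IDR of 0.0179 kept it off the conservative list, while in the second ranked list it was 0.00359 and the peak is on the optimal list. In that list the count was again 3 of the 47, now mex-1, cgef-1 and lgl-1, beside 3.10% of all genes. The nearest tRNA, snoRNA, snRNA or rRNA gene started 5826 bp from the lgl-1 summit, 6800 bp from that of mex-1, 21467 bp from that of cgef-1 and 40446 bp from that of pkc-3.

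**Figure D1:**
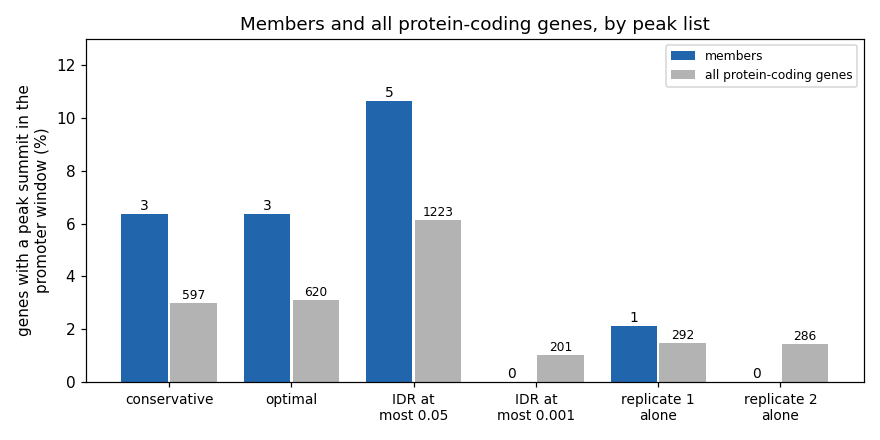
Percentage of the 47 members (blue) and of all 19973 protein-coding genes (grey) with a peak summit in a promoter window, for 6 peak lists or thresholds; numbers above the bars are gene counts. The members' bar stands above the grey one in the conservative and optimal lists and at an IDR of at most 0.05, as it does for replicate 1 alone, and is 0 at an IDR of at most 0.001 and in the list of replicate 2 alone.

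The replicates' own thresholded lists held fewer. In replicate 1 alone 1 of the 47 genes had a summit in its window, mex-1, beside 1.46% of all genes. In replicate 2 alone none had one, beside 1.43%. At an IDR of at most 0.05 the count was 5 of 47 (10.6%), beside 6.12% of all genes, and added mex-3 and lgl-1 to the 3 sites. The plot of shares by list sets these counts side by side; each rests on 5 genes or fewer. Genes with several starts have wider windows. Of the 31 members with 1 start, 1 had a site (3.23%), beside 2.34% of the 14498 such protein-coding genes. Of the 16 with more than 1 start, 2 did (12.5%), beside 4.71% of 5475.

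Candidate signals, the 3 sites included, had a median near that of all genes. A candidate lay in the window of 38 of the 47 genes (80.9%), beside 69.4% of all protein-coding genes. The strongest candidate per gene had a median signal of 35.7 over these 38, against 33.9 over the 13864 protein-coding genes with one (quartiles 23.8 and 46.3). As a percentile among those genes, the median member stood at 54.2. The windows held 106 candidates, of which 53 had an IDR above 0.5, and the share of such peaks over the whole ranked list was 57.7%. Neighbouring candidates can be matched to the same replicate peak, as a pair at pgl-3 were, so the 106 are not independent.

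**Figure D2:**
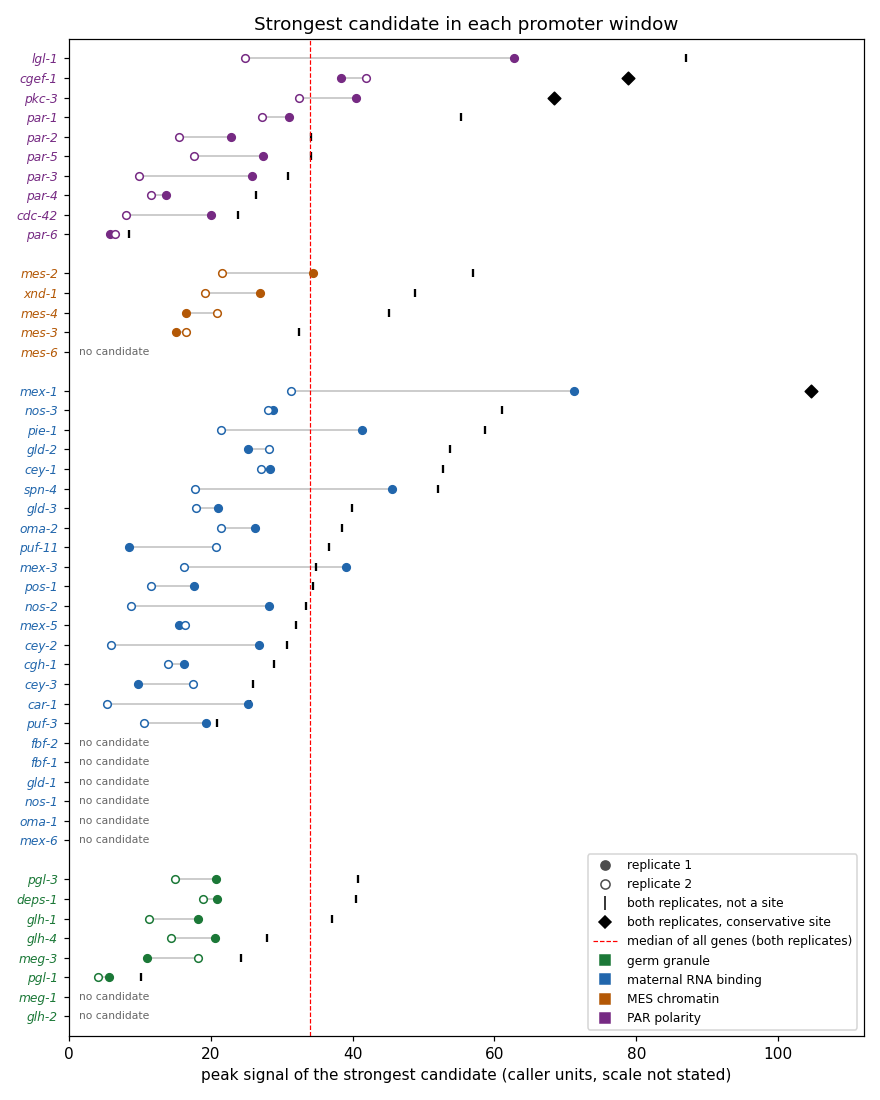
Peak signal of the strongest candidate in the promoter windows of each member, by subgroup: filled circles are replicate 1, open circles replicate 2, black marks the value over both replicates (diamonds for conservative sites), and the dashed line is the median over all protein-coding genes, 33.9. The highest values belong to mex-1 (105), lgl-1 (86.9), cgef-1 (78.8) and pkc-3 (68.4), and 9 genes have no candidate.

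Among the PAR polarity genes all 10 had a candidate and 2 had a site, beside 69.4% and 2.99% of all protein-coding genes. These genes have a median of 3 starts and 2403 bp of window, against 1 start and 1201 bp in each of the other subgroups, and 4.71% of all genes with more than 1 start had a site. The median strongest signal was 34.1. After lgl-1, cgef-1 and pkc-3 came par-1, the kinase of the posterior cortex, with 55.3 over both replicates, 31.1 in replicate 1 and 27.2 in replicate 2. That peak lay 17 bp downstream of 1 of its 11 starts, in coding sequence, at an IDR of 0.0526. The windows of par-1 cover 10771 bp in all and held 15 candidates, so it had many more places to hold one. The RING finger gene par-2 (34.2) and par-5 (34.1), which encodes a phosphoserine-binding adaptor, stood at the median of all genes. Below it were par-3 (30.9), a PDZ scaffold of the anterior domain, the kinase gene par-4 (26.4), related to LKB1, and the GTPase gene cdc-42 (23.8). The lowest was par-6, the PDZ partner of PKC-3, with 8.44 over both replicates, 5.84 in replicate 1 and 6.48 in replicate 2. The genes of the anterior complex therefore ranged from a site at pkc-3 to the weakest strongest-candidate signal of all 38 genes at par-6.

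Of the 24 maternal RNA-binding genes, 1 had a site (4.17%), beside 2.99% of all protein-coding genes. A candidate lay in the windows of 18 (75%), beside 69.4% of all protein-coding genes. The median strongest signal was 35.7. After mex-1 the highest was nos-3, a Nanos family gene, with 61.0 over both replicates, 28.8 in replicate 1 and 28.1 in replicate 2. Its IDR was 0.0674, and the summit lay 161 bp upstream of a start, in an intron of the gene. That summit was also in the window of another protein-coding gene, 988 bp upstream of that gene's start. The CCCH finger gene pie-1, whose product keeps transcription off in the germline blastomeres, followed with 58.6 (41.3 and 21.4) at an IDR of 0.0643. This summit lay inside the gene, in coding sequence 101 bp downstream of an internal start. At the outermost pie-1 start the candidate had a signal of 16.7 at an IDR of 0.763. The replicates were close at nos-3, and replicate 1 was the higher at pie-1. The poly(A) polymerase gene gld-2 (53.8), the Y-box gene cey-1 (52.8) and the RRM gene spn-4 (52.1) lay in the same range, at an IDR of 0.109, 0.0761 and 0.149. With 6 starts, gld-2 had 5949 bp of window and 8 candidates, against 1 start and 1201 bp at cey-1 and spn-4.

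At mex-3, a KH domain gene, the lowest IDR and the highest signal belonged to different candidates. The peak 98 bp downstream of a start had an IDR of 0.0289 with a signal of 18.1 over both replicates, below the matched replicate values of 39.0 and 25.8. Its paired replicate summits were 340 bp apart, and a neighbouring candidate was matched to the same peak of replicate 1. The position of this peak is thus less certain than at the 3 sites.

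Other maternal regulators with a candidate ran from 39.9 down to 20.9, on both sides of the median of all genes. Above that median were the Bicaudal-C family gene gld-3 (39.9), the CCCH finger genes oma-2 (38.5) and pos-1 (34.5), and the PUF gene puf-11 (36.7). Just below it the Nanos gene nos-2 reached 33.5, with 28.2 in replicate 1 and 8.82 in replicate 2. The CCCH finger gene mex-5 had 32.0. Lower still were the Y-box genes cey-2 (30.8) and cey-3 (26.02), the helicase gene cgh-1 (28.9), car-1 (25.5), whose product binds RNA with CGH-1, and the PUF gene puf-3 (20.9). The Y-box paralogs therefore spanned from 26.02 to 52.8, and PUF genes puf-3 and puf-11 from 20.9 to 36.7.

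No germ granule gene had a site, beside 2.99% of all protein-coding genes. With 8 genes, this count of 0 is not read as a result about the subgroup. Of the 8, 6 had a candidate (75%), beside 69.4% of all protein-coding genes. The median strongest signal was 32.5 and the highest was 40.7 at pgl-3, which encodes a granule scaffold protein. deps-1, whose product promotes granule assembly, followed with 40.5, then the Vasa-like helicase genes glh-1 (37.1) and glh-4 (27.9). meg-3, which encodes a disordered granule protein, reached 24.3, and pgl-1, the scaffold paralog of pgl-3, 10.2. At pgl-1 the replicate values were 5.65 and 4.06, and at pgl-3 they were 20.7 and 14.96. So both replicates placed pgl-3 above pgl-1. None of the 8 had a candidate at an IDR of 0.1 or below. The lowest was 0.136, at pgl-3.

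The MES chromatin genes also had no site, beside 2.99% of all protein-coding genes. With 5 genes, this count of 0 is not read as a result about the subgroup. A candidate lay in the windows of 4 of these genes (80%), beside 69.4% of all protein-coding genes. Their median strongest signal, 47.0, was the highest of the 4 subgroups, and rests on 4 genes. mes-2, the histone methyltransferase of the worm Polycomb complex, had 57.0 over both replicates, 34.5 in replicate 1 and 21.5 in replicate 2, at an IDR of 0.0838. Its summit lay 98 bp upstream of the start, in the sequence printed above. xnd-1, an autosome-associated chromatin factor, reached 48.8 and mes-4, a histone methyltransferase that maintains marks on germline genes, 45.1, with IDR values of 0.177 and 0.368. mes-3, which encodes another subunit of the MES Polycomb complex, had 32.4. The third subunit gene, mes-6, had no candidate. Of the complex's genes, mes-2 thus had the strongest peak and mes-6 none in the ranked list.

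Genes without any candidate were spread over 3 subgroups. They were glh-2, a Vasa-like helicase gene, and meg-1 of the germ granule set, and mex-6, oma-1, nos-1, the translational repressor gene gld-1 and the PUF genes fbf-1 and fbf-2 of the maternal set, with mes-6. That is 9 of 47, beside 30.6% of all protein-coding genes. Several are paralogs of genes with a candidate, such as oma-1 beside oma-2 and mex-6 beside mex-5. Reads from near-identical sequence can be lost or misplaced, and 37.3% of the 30-base words of the fbf-1 window occur elsewhere in the genome, as do 3.16% for fbf-2. In the 9 genes without a candidate the median was 0, as it was in the other 38, where glh-4 had 37.3%, glh-1 23.5% and mes-4 20.6%. The part of repeated sequence in the missing candidates was not tested.

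**Figure D3:**
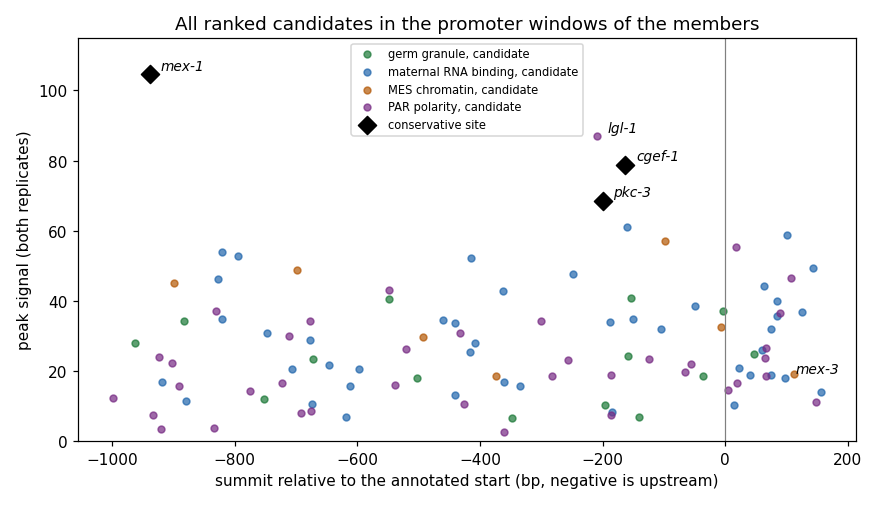
Distance in bp from the annotated start (negative is upstream) and peak signal over both replicates for all 106 candidates in the members' promoter windows, coloured by subgroup; black diamonds are conservative sites, and names mark sites and candidates at an IDR of at most 0.05. The sites at pkc-3 and cgef-1 and the lgl-1 peak lie between 163 and 209 bp upstream, and the mex-1 site 939 bp upstream.

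By position, 81 of the 106 candidates lay upstream of a start, in windows where 1000 of 1201 bp are upstream. The plot of summit positions shows the pkc-3, cgef-1 and lgl-1 peaks close together, 200, 163 and 209 bp upstream of their starts. Counted over the annotated gene span, whether or not in a promoter window, sites lay in 3 of the 47 genes, beside 2.45% of all protein-coding genes. The cgef-1 site already described is among them and is also in a promoter window. Outside the windows were cey-1, with a site of signal 84.7 in a coding exon 716 bp downstream of its start (chrII:11040332-11040647), and par-3, with a site of signal 75.6 in a coding exon 11531 bp from its outermost start (chrIII:5675606-5675921). The nearest site to a start was over 100000 bp away for oma-2, fbf-1, fbf-2, glh-4, puf-11, mes-3 and par-4. The same count over all protein-coding genes was not made, so these distances are not read as particular to the members.

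Signals differed between the replicates. The strongest candidate was higher in replicate 1 for 29 of the 38 genes, where 63.2% of all candidates were higher in replicate 1. The median ratio of replicate 1 to replicate 2 was 1.39 over these strongest candidates and 1.27 over all candidates. The sets are unlike, since the second is not limited to the strongest per gene. Among the 38 genes the ratio ran from 0.407 at puf-11 to 4.63 at car-1. Across these 38 genes, which share both libraries, Spearman's rho between replicate signals was 0.532, and over the 13864 genes with a candidate it was 0.364. Of the 4 leading peaks, replicate 1 was higher at mex-1, lgl-1 and pkc-3 and replicate 2 at cgef-1. At mex-1 and lgl-1 it exceeded replicate 2 by factors of 2.28 and 2.53, and at pkc-3 by 1.25.

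On chromosomes I and II lay 12 of the 47 genes each (25.5%, beside 14.4% and 17.3% of all protein-coding genes), and on X 4 (meg-1, meg-3, cgef-1 and lgl-1), which is 8.51% beside 13.7% of all protein-coding genes. Sites lay in windows of 2 of the 12 on II, 1 of the 4 on X and none of the 12 on I, where 3.02%, 3.15% and 3.89% of all protein-coding genes had one. The gene for the immunoprecipitated protein, scrt-1, had neither a site nor a candidate in its window.

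Sites also lay at other genes of the same pathways. Of 66 such genes, 10 had a site (15.2%), again beside 2.99% of all genes. Of the 27 with more than 1 start 7 had a site, beside 4.71% of all protein-coding genes with more than 1 start. The list was compiled by hand from the 4 roles, with earlier results of these data known, and the difference was not tested. Of the maternal RNA regulators 5 of 20 had one, of the chromatin genes 3 of 12, of the germ granule genes 1 of 14 and of the polarity and spindle genes 1 of 20.

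The strongest of these was at atx-2, the ataxin family RNA-binding gene, 74 bp upstream of a start, where replicate 1 gave 211, replicate 2 gave 150 and both together 359, and it is in both replicates' own lists. A second atx-2 site, 629 bp upstream, had 83.9. spd-5, which encodes a centrosome scaffold, held sites of 312 and 89.1. larp-1 (115.02), which encodes a La-related RNA-binding protein, and the RNA-binding gene sup-26 (94.98) followed among the maternal genes, then ifet-1 (94.97), a translational repressor gene, and the kinase gene mbk-2 (71.1). The signals at atx-2, spd-5 and larp-1 exceeded that of mex-1, the strongest member. The chromatin genes were lin-35 (97.2), the retinoblastoma homolog, the histone methyltransferase gene set-25 (91.0) and the chromodomain gene mrg-1 (74.8). pgl-2, a paralog of pgl-1 and pgl-3, had a site of 76.1 in coding sequence 198 bp downstream of a start. For 6 of the 10, a site also lay in another gene's window: for atx-2 in that of ecps-1, for spd-5 of npp-6, for larp-1 of wip-1, for ifet-1 of the ribosomal protein gene rps-1, for lin-35 of vps-51 and for mrg-1 of spcs-2.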

How the data were processed

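Peak lists from 2 replicates of 1 group were used. Per the file notes and labels, the authors called peaks in ce11 coordinates on each replicate and on both, fragments being 200 to 800 bp; which aligner and caller were used is not given in the sources used here, and read depth is unknown. The deposited signal is the peak caller's value. Ranked lists as deposited hold a score, capped, and the −log10 of the global IDR from which it follows. The inputs of the ranked list carry no replicate number and were tied to replicates by identical peaks: 66.1% of those of the first input are in the ranked list of replicate 1 and 0% in that of replicate 2, and 52.9% and 0% the other way for the second. Summits were placed on Ensembl release 115 starts with Python 3.11.15, pandas 2.3.3 and numpy 2.4.6; intervals used scipy 1.17.1. In a check of the window search with summits planted at a sample of the 19973 genes, 1000 of 1000 passed. Summits planted inside a window had to be found. Those planted just outside were only compared with the same window definition, so the check could not reveal a window that was too wide.

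The members and lists were chosen with earlier results of these data known. Since the files hold 1 group, no test was run, and shares over all protein-coding genes stand as the background. Genes named are members with a site or an IDR of at most 0.05, the 3 with the highest and 2 with the lowest signal in each subgroup, those without a candidate, scrt-1, other pathway genes with a site and genes sharing a member's site; the other members are named as well for completeness, outside that rule. The labels call both replicates biological. The control library was not analysed here. Alternatives were other lists, IDR thresholds, windows, starts, peak overlap and each replicate left out.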

Additional observations from a re-analysis of the deposited data

How the results depend on the processing

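No paired analysis was possible because the series holds 1 group. The count of members with a site, 3, was 5 at an IDR of at most 0.05 and 0 at an IDR of at most 0.001, where 1.01% of all genes had one. Leaving out a replicate, it ranged from 0 (without replicate 1) to 1 (without replicate 2), and for other pathway genes, 10 in the main count, from 4 to 5. At an IDR of at most 0.001 the count for other pathway genes was 2, and in the optimal list it was 7. The single maternal RNA-binding gene became 2 at an IDR of at most 0.05, and 0 at 0.001 and with the 500 bp window, which the mex-1 summit lies outside. It ranged from 0 to 1 with a replicate left out. For the PAR polarity genes the count of 2 fell to 0 at 0.001, to 1 with the outermost start only, since the cgef-1 site lies at an internal start, and to 0 without either replicate. The counts for germ granule and MES genes were 0 in every setting run, on 8 and 5 genes. Over all protein-coding genes the share in these settings ran from 1.01% to 6.12%. These counts of 0 are therefore not read as a result about either subgroup. The members' median strongest signal, 35.7, was 18.04 without replicate 1 and 25.8 without replicate 2, where all genes had 16.02 and 20.8. Read depth is unknown, so a missing candidate cannot be told apart from low depth.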

Other observations

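Among the other pathway genes, 21 of 66 lie on chromosome III and 7 of the 10 with a site are there, where 4.05% of all protein-coding genes have one. The other 3 are on I (2 of 18 genes) and IV (1 of 6). Of the members, 5 lie on III and none of them had a site in its window. This pattern was noticed after the values were seen and was not tested.

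In windows of 1201 bp around genes with 1 start, CAGGTG occurred in 7 of 31 members (22.6%) and in 27.4% of 14498 protein-coding genes. GAGAGA occurred in 21 of 31 (67.7%) and in 49.3%, and GTTCGA in 15 of 31 (48.4%) and in 35.5%. For CAAGTG the shares were 13 of 31 (41.9%) and 41.1%, and for GGGCGG 8 of 31 (25.8%) and 18.8%. The median GC content of these windows was 36.3% for the members and 35.0% for all such genes. The lgl-1 peak held CAGGTG within 50 bp of its summit, and 6 of the 106 candidates of all members did (5.66%). These shares were not tested.

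The 101 bp windows of mex-1 and pkc-3 share a stretch of 13 bases with at most 1 mismatch, and so do those of pkc-3 and lgl-1, among 45 pairs of windows with a median longest stretch of 9 bases. The stretch at mex-1 and pkc-3 includes the word GTTCGA already given for both, so it is not a separate similarity. With its mismatched base left free, it occurred in 2 of the 1211 sites and 4 of the 101059 candidates. The comparison was chosen after the sequences were seen and was not tested.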
